A study of Mus musculus with 10 samples.

Results

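Fos, Fosb, Jun, Junb, Jund, Egr1, Egr2, Egr3, Ier2 and Atf3 are immediate-early and stress-response genes. They were chosen by symbol, and all 10 were found, among the 31053 genes listed for each of 3 droplet libraries and the 55453 genes listed for each of 7 plate libraries of mouse supraspinatus tendon enthesis, the insertion of this shoulder tendon into bone. The droplet libraries (10x Genomics) held whole entheses of C57BL/6 wild-type mice of postnatal day 11 (P11), 18 (P18) or 56 (P56). The plate libraries held single cells of Gli1CreERT;Ai14 mice, 96 wells per age, at P7, P11, P14 and P18 and then at P21, P28 and P42, with tamoxifen given at P5 and P7. In these mice a tamoxifen-dependent Cre under control of Gli1, which acts in Hedgehog signalling, switches on a red fluorescent protein that marks the cells and their progeny. Entheses of several animals were pooled for each library, and each age was 1 library per assay. Both sets of tissue went through the same digestion with liberase for 1.5 hours at 37 °C, per the labels' protocols, and no sample without digestion was analysed here. The droplet cells were also treated to lyse red cells and sorted for lack of both Cd45, found on leukocytes, and DAPI, a dye that enters dead cells. The wording of the plate sort does not settle whether red cells were kept, and P14 is absent from the protocol's list of plate ages.

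Immediate-early genes are transcribed within minutes of a stimulus, from factors already present in the cell, and their mRNAs decay quickly. Growth factors, mechanical load, tissue damage and enzymatic digestion at body temperature all switch them on through MAP kinases, serum response factor with its ELK partners, and CREB. Fos and Jun proteins pair to form the transcription factor AP-1, Egr proteins are zinc-finger transcription factors, and Atf3 is a member of the ATF/CREB family induced by stress. In tendon, Egr1 and Egr2 are also known as regulators of collagen genes, so a transcript of these genes can belong to the tissue or to its preparation. In digested cells without an undigested sample the contributions of tissue and digestion cannot be told apart.

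Windows at the start sites came from a table of RefSeq promoters (GRCm38.p6), in which 7 of the 10 members were matched. Each window was the 250 bases upstream of the start site, and motifs were searched on both strands. The motifs were the CArG box bound by serum response factor, the cAMP response element TGACGTCA and its core TGACG (which lies inside it), the AP-1 element TGANTCA, the AP-1-like element TGACATCA, and TATAA. These 3 windows are shown because Fos, Jun and Junb carry the main differences below, and capitals mark motif matches, 5′ to 3′ on the gene's strand: Fos at chr12:85473640-85473889 on the plus strand, Jun at chr4:95052223-95052472 on the minus strand and Junb at chr8:84978749-84978998 on the minus strand.
Fos: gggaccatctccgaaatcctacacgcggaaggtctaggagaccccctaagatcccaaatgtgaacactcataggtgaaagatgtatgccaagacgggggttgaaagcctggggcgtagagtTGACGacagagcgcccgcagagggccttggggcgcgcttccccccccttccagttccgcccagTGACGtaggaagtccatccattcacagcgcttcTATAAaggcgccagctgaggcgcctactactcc
Jun: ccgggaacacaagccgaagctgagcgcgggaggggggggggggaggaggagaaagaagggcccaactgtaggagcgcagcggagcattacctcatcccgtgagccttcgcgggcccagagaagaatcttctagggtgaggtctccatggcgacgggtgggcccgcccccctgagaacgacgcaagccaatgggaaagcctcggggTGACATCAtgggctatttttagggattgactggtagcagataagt
Junb: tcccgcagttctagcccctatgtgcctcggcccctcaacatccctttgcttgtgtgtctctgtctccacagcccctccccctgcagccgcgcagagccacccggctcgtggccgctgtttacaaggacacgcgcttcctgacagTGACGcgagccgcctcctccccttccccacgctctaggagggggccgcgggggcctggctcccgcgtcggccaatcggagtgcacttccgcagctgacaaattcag

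The core TGACG stood 129 to 125 and 66 to 62 bases upstream of the Fos start site, and TATAA 33 to 29 bases upstream. Junb had 1 TGACG, 106 to 102 bases upstream, and Jun had TGACATCA 45 to 38 bases upstream. Of all 32851 promoter windows of this length, 17.8% held TGACG, 2.93% TGACATCA and 22.8% TATAA. Fosb and Atf3 each had 1 TGACG, and Jund had no match to any of the motifs. A CArG box, present in 1.47% of windows, was found in 4 of the 5 Egr2 windows, which lie inside the annotated gene. TGACGTCA (1.55% of windows) and TGANTCA (6.75%) matched in none of these windows, which says only that these letters are not in them. Egr1, Egr3 and Ier2 had no window in the table. In the mm10 (GRCm38) annotation Fos is on chromosome 12 at 85473890-85477274 and Fosb on chromosome 7 at 19302696-19310118. Jun is on chromosome 4 at 95049036-95052222. Junb (84976909-84978748), Jund (70697739-70700616) and Ier2 (84661331-84662852) are all on chromosome 8. Egr2 is on chromosome 10 at 67534469-67542188, Egr3 on chromosome 14 at 70077317-70082613 and Atf3 on chromosome 1 at 191170296-191183333.

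The droplet libraries held 44104990, 53725468 and 40082499 counts at P11, P18 and P56, and the plates between 240498 and 507431. After filters (500 or more detected genes, mitochondrial counts no more than 10%) and removal of likely doublets, 2882, 5163 and 4920 droplet cells and 86 to 96 wells per plate were kept. Pairs of droplet libraries shared 4, 6 and 9 cell barcodes. Cells were clustered without the members and without the stress-gene lists used below, so that these genes did not shape the classes, and clusters were named "-like" from fixed marker genes. Mesenchymal-like cells (tendon, connective-tissue, chondrocyte, osteoblast and other collagen-rich clusters with mural and endothelial cells left out) numbered 2209, 1455 and 4128 in the droplets and 79 to 92 per plate. The P18 droplet library stood apart: despite the Cd45-negative sort it held 2076 B-lymphoid-like and 873 neutrophil-like cells. On the P21 plate 54 of 93 wells fell in 1 cluster with Mpo and Prtn3 among its leading genes, and no tendon-like well was found. These 54 wells carried Col1a1 at 17085 CPM and are counted as mesenchymal-like, where they are most of the 92 such wells of that plate. Mpo, a gene of granulocyte progenitors, was counted in 17 of the 92 wells and in 0 wells of the other plates, so P21 levels are also given without that cluster, a choice made after seeing the data. Levels are CPM, a gene's counts scaled to a common library total, with counts summed over the cells of a group. Since libraries were made from 3′ ends and not scaled by length, levels are compared between samples and classes, not between genes.

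In mesenchymal-like droplet cells the members did not share 1 pattern over age. Fos, Egr1, Egr2 and Ier2 were lowest at P56, whereas Atf3 and Jund were highest there and Jun was lowest at P18. With 1 library per age there is no test, and counting intervals cover counting error only. Fos, the partner of Jun proteins in AP-1, measured 3056 CPM at P11, 4021 at P18 and 1290.0 at P56. The 95% Poisson intervals were 3037 to 3075, 3990 to 4053 and 1278 to 1303 CPM. Fos was thus 3.12-fold lower at P56 than at P18 and 2.37-fold lower than at P11. The make-up of these cells differed: chondrocyte-like and osteoblast-like cells were 253 and 137 of 2209 at P11, 570 and 434 of 1455 at P18, and 0 and 19 of 4128 at P56. In tendon-like cells alone Fos measured 2745, 2116 and 1493 CPM at P11, P18 and P56, a log2 ratio of -0.50 from P18 to P56. In connective-tissue-like cells alone it measured 2515, 3228 and 1065 CPM, a log2 ratio of -1.60. Over all kept cells, which at P18 include many leukocytes, the ratio was -0.13. Egr1 measured 1142, 1084 and 508 CPM at P11, P18 and P56, with both younger ages more than 2-fold above P56. Egr2, a zinc-finger factor also needed for myelin formation, measured 33.7, 47.7 and 11.7 CPM, the lowest level again at P56. Ier2, a small nuclear protein of uncertain function, measured 394, 595 and 217 CPM. Only between P18 and P56 did Ier2 pass a 2-fold difference, at 2.74-fold.

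Among the Jun genes, which code for the AP-1 subunits that can bind DNA as homodimers, the order differed. Jun measured 934 CPM at P11, 459 at P18 and 965 at P56, so that P18 stood about 2-fold below both other ages. Junb, which often restrains Jun activity, measured 1114, 1751 and 1733 CPM. Jund, the most constitutive of the family, measured 1394, 2051 and 2375 CPM. Neither Junb nor Jund reached a 2-fold difference between any 2 ages. Atf3 measured 271, 353 and 563 CPM, 2.08-fold higher at P56 than at P11. Fosb (468, 736 and 617 CPM) and Egr3 (18.3, 10.2 and 13.6 CPM) stayed within 2-fold over the 3 ages.

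Read against all 12089 genes with at least 100 counts, 0 members were at least 2-fold higher at P18 than at P11 (6.34% of genes) and 1, Jun, was lower (10.1%). From P11 to P56, 1 was higher (7.23%) and 3 were lower (9.35%). From P18 to P56, 1 was higher (14.3%) and 4 were lower (9.49%). The median log2 ratio over all genes was -0.19, 0.04 and 0.23 for these pairs. These directions depended on the cell type. In tendon-like cells alone Egr1 was higher at P56 than at P18, by 0.55 on the log2 scale, and so was Egr2, by 1.91. In the same cells 5 of 10 members were at least 2-fold higher at P56 than at P18 (11% of 9171 genes) and 0 lower (7.99%). These were Fosb, Jun, Junb, Egr2 and Egr3, of which Egr2 and Egr3 rested on 11 and 1 counts in the P18 tendon-like cells. In connective-tissue-like cells alone 0 were higher (6.47% of 10648 genes) and 3 lower (7.11%). The tendon-like cells of the 3 ages also came from different clusters: 641 of 800 at P11 from the cluster led by Mfap4, Cpz and Tnmd, 205 of 231 at P18 from that led by Barx2, Nrxn2 and Egln3, and at P56 811 from that led by Mt3 and Angptl7 and 373 from that led by Fam159b and Col22a1. With 1 library per age, age and library cannot be told apart.

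Over the 7 plates every member had a wider range than over the 3 droplet libraries. A range widens with more libraries and with fewer counts, and the plates had both. The share of all genes with a wider range on the plates is not given here. Fos measured 1118, 4007, 1432, 2253, 1778, 5044 and 2370 CPM in mesenchymal-like wells, in order of age from P7 to P42. The P28 and P11 plates were highest and the P7 plate lowest. Junb measured 238, 1832, 508, 378, 1342, 1591 and 807 CPM in the same order, so that P11, P28 and P21 led. Atf3 measured 134, 745, 206, 237, 701, 1349 and 559 CPM, a 10.1-fold range. For Jun the values were 450, 1511, 395, 453, 540, 1888 and 1391 CPM. Here P28, P11 and P42 stood above the 4 other plates, none of which passed 541 CPM. Egr1 had the narrowest range, 2.98-fold, from 605 CPM at P7 to 1803 CPM at P28. Fosb ran from 134 CPM at P7 to 641 CPM at P28, Jund from 201 to 836 and Ier2 from 141 (P14) to 704 (P28). Egr2 ran from 13.9 to 87.2 CPM, and Egr3 rested on 1 to 15 counts per plate. Each of the 8 members other than Egr2 and Egr3 was highest at P28 or P11. In the 38 mesenchymal-like wells of P21 outside its largest cluster, Junb measured 2042, Ier2 787, Atf3 1136, Jun 715 and Fos 1835 CPM, and with these wells alone Junb and Ier2 would be highest at P21.

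**Figure D1:**
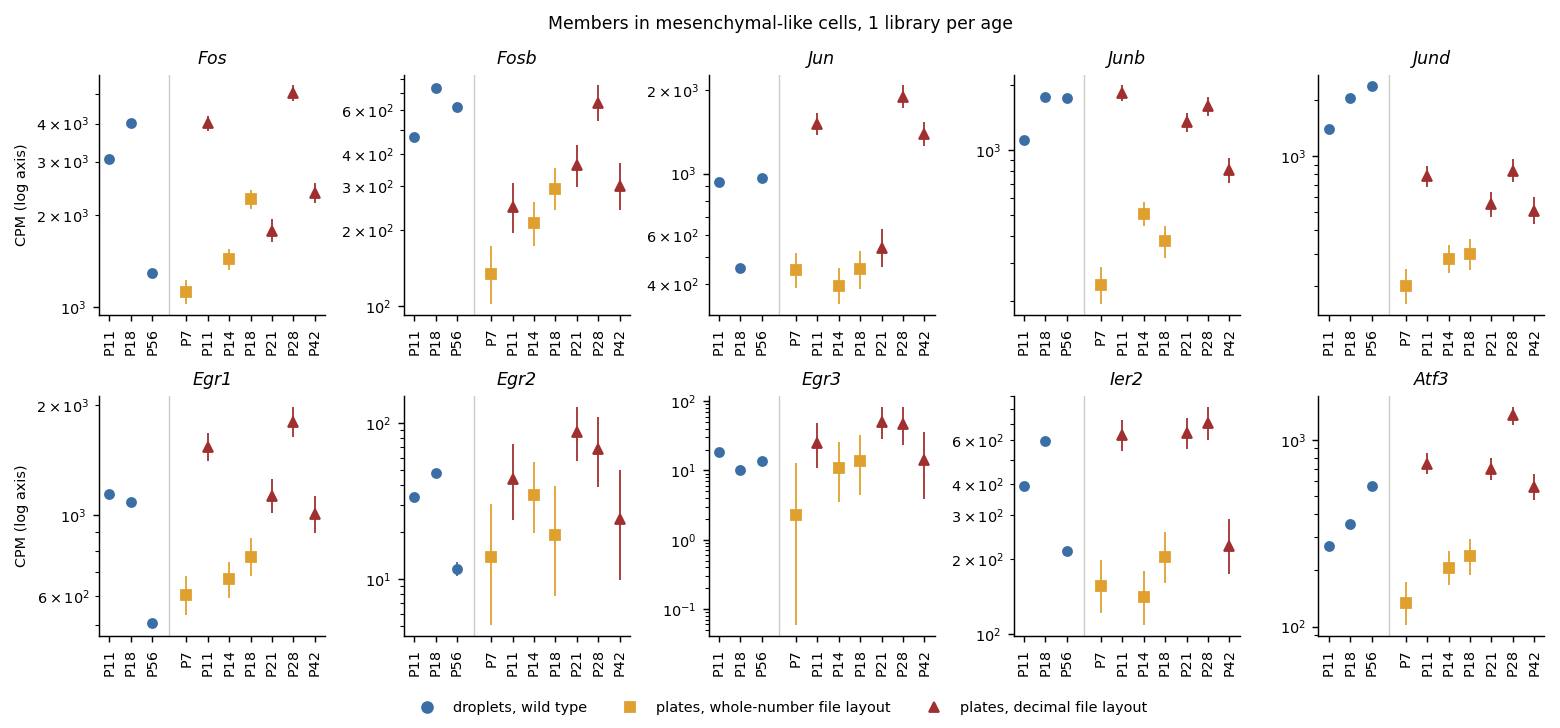
Level of each member (CPM, log axis) in mesenchymal-like cells of the 3 droplet libraries and 7 plates by age in days, with bars for the 95% Poisson counting interval. Fos lies at 1290.0 CPM in the P56 droplet library against 3056 and 4021 at P11 and P18, and plate levels go up and down between neighbouring ages.

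No member followed age along the plates past the threshold. In edgeR's quasi-likelihood test of log2 age over the 7 plates, 0 of the 9 members tested were called (0% of 4390 genes; 427 genes had an unadjusted p under 0.05). Egr3 did not pass the filter on low counts. All 9 slopes were positive, with a median of 0.34 log2 units per doubling of age against 0.001 over all genes. Fosb had a slope of 0.62 ± 0.27 (SE, edgeR, Benjamini-Hochberg adjusted p = 0.509). The slope of Atf3 was 0.75 ± 0.42 (adjusted p = 0.597).

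The plate tables were deposited in 2 layouts, which write counts either with a decimal point (the P11, P21, P28 and P42 plates, called decimal here) or as whole numbers (the P7, P14 and P18 plates). This comparison was chosen after seeing the data, and what the layouts stand for is not stated in the labels. The number in the prefix of the well names splits the plates into the same 2 sets, being lower on every decimal plate. Layout and this numbering cannot be told apart. Of the 9 members tested, 6 lay higher in all 4 decimal plates than in all 3 others: Jun, Junb, Jund, Egr1, Ier2 and Atf3. Over all 4157 genes compared, 9.02% did so and 5% lay lower. Junb spanned 238 to 508 CPM in the whole-number plates and 807 to 1832 CPM in the decimal plates. Atf3 spanned 134 to 237 and 559 to 1349 CPM, and Jund 201 to 298 and 510 to 836 CPM. These groups do not overlap, whereas those of Fos, Fosb and Egr2 do. Without the P21 plate 7 of 9 lay higher, Fos added, against 12.6% of genes higher and 7.43% lower. With age in the model, the layout coefficient was 1.83 ± 0.49 on the log2 scale for Junb (SE, edgeR, adjusted p = 0.185), 1.76 ± 0.51 for Atf3 (adjusted p = 0.271) and 1.66 ± 0.52 for Ier2 (adjusted p = 0.323). All 9 members were positive and 0 were called, against 0.706% of all genes, all of them lower in decimal plates. At an unadjusted p under 0.05 there were 5 members and 323 genes, and DESeq2 called 1 member, Junb (adjusted p = 0.0263). In simulated data this test found 34.5% of genes changed by 1.5 log2 units.

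Depth moved with the layout, and mitochondrial counts did so on some plates. The median well held 2283 to 3448 counts on the decimal plates and 3780 to 4876 on the whole-number plates, so the plates with the higher member levels were the shallower ones. The median mitochondrial share was 5.21% on the P28 plate and 4.57% on the P42 plate, against 2.79% and 3.22% on the other decimal plates and 2.24% to 2.91% on the whole-number plates. P28, where 7 of the members peaked, was both the shallowest plate and the one with the highest mitochondrial share. The part of depth, mitochondrial share or any other difference between these sets of plates was not tested. With layout as a term the age slope turned negative for 5 members: Junb (-0.18), Ier2 (-0.24), Egr1 (-0.11), Jund (-0.013) and Egr2 (-0.0039).

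**Figure D2:**
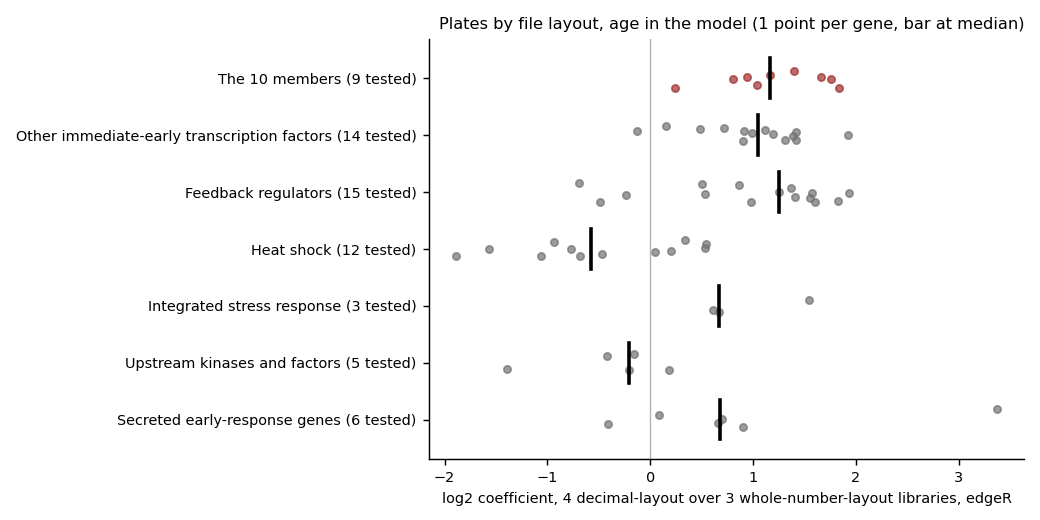
Layout coefficient (log2, decimal over whole-number plates, edgeR with age as a covariate) of each member and of genes in 6 lists, 1 point per gene tested, with each list's median. Members have a median of 1.17 and the feedback regulators of 1.25, while heat-shock genes have a median of -0.58.

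The lists for the rest of the pathway showed the following on the plates. Of 14 other immediate-early transcription factors tested (Nr4a, Klf, Maff, Fosl and related genes) 0 passed, with a median layout coefficient of 1.05. Of 15 feedback regulators, which end the response by dephosphorylating kinases or destabilising mRNAs, 0 passed, with a median of 1.25. The 6 secreted early-response genes had a median of 0.68 and the 3 genes of the integrated stress response one of 0.67. For 12 heat-shock genes the median was -0.58, and for 5 upstream kinases and factors it was -0.21. Over all genes the median was -0.002. All genes of a list share the same 7 libraries. Summed over the list, feedback regulators made up 0.998%, 0.882%, 0.761% and 0.340% of counts on the P11, P21, P28 and P42 plates and 0.243%, 0.314% and 0.354% at P7, P14 and P18, so that P42 lay within the range of the latter.

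The 10 members together made up 0.305% of mesenchymal-like counts at P7, 1.14% at P11, 0.389% at P14, 0.492% at P18, 0.718% at P21, 1.40% at P28 and 0.721% at P42 on the plates. In the droplets they made up 0.882%, 1.11% and 0.829% at P11, P18 and P56. Only Jund had all 7 plates (201 to 836 CPM) below all 3 droplet libraries (1394 to 2375 CPM), and 0 members had all plates above. Over 8219 genes found in both assays, 4.62% lay below and 3.81% above. Assay, strain, sort and depth differ together here and cannot be told apart.

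P11 and P18 were profiled in both assays. From P11 to P18 the log2 ratio of Junb was 0.65 in the droplets and -2.28 on the plates. For Atf3 the ratios were 0.38 and -1.65, for Ier2 0.60 and -1.62, for Jund 0.56 and -1.39, and for Fos 0.40 and -0.83. Jun was lower at P18 in both assays, with log2 ratios of -1.02 and -1.74. The droplet values pool classes whose shares differed between P11 and P18. Within classes, Fos rose only in connective-tissue-like cells (2515 to 3228 CPM) and fell in tendon-like cells (2745 to 2116 CPM). It also fell in chondrocyte-like and osteoblast-like cells. Of the others, Jund rose in each of these classes, Egr2 fell in each, and Junb, Ier2 and Atf3 went different ways. The P11 plate has the decimal layout and the P18 plate the whole-number one, so age and layout cannot be told apart in this pair of plates.

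Between cell types of the droplet libraries, the members were higher in the skeletal cells than in tendon-like cells. Chondrocyte-like cells were absent from the P56 library, so values are given for P11 and P18 with no test. At P11 all 10 members were higher in chondrocyte-like than in tendon-like cells, 7 of them at least 2-fold (12.3% of 8184 genes) and 0 at least 2-fold lower (16.7%), with a median log2 ratio of 1.97. At P18, 7 were higher, 6 of them at least 2-fold (15.3% of 6712 genes), and 0 were at least 2-fold lower (16.4%), with a median of 1.40. Among these 6, Egr3 had 102 counts in chondrocyte-like and 1 in tendon-like cells, and Egr2 had 450 and 11. Both thus passed the threshold of 100 counts through the chondrocyte-like cells alone. Egr3, among the 7 at P11, had 108 counts in chondrocyte-like and 68 in tendon-like cells there. Fos measured 4889 CPM in chondrocyte-like, 5378 in osteoblast-like, 2745 in tendon-like and 2515 in connective-tissue-like cells at P11. At P18 it measured 4165, 5256, 2116 and 3228 CPM in the same order, both skeletal classes again above both fibroblast classes.

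Egr1 was higher in both skeletal classes than in both fibroblast classes as well, at 2669, 1962, 620 and 1078 CPM in these 4 classes at P11 and 1252, 1249, 402 and 972 CPM at P18. Egr2 measured 109, 106, 14.5 and 20.3 CPM at P11 and 62.5, 64.7, 4.4 and 12.1 CPM at P18. Its log2 ratio of chondrocyte-like over tendon-like cells was 2.90 at P11 (95% counting interval 2.65 to 3.16) and 3.82 at P18 (2.97 to 4.83). Junb measured 2211 CPM in chondrocyte-like and 531 CPM in tendon-like cells at P11, and 2144 and 631 CPM at P18. Jun did not keep its direction: 1040 against 663 CPM at P11 and 289 against 406 CPM at P18. Jund (2003 against 2174 CPM) and Atf3 (292 against 294 CPM) also lacked a higher level in chondrocyte-like cells at P18. Osteoblast-like cells exceeded tendon-like cells in 9 of 9 members with enough counts at P11, 6 of them at least 2-fold (7.68% of 7778 genes), and in 7 of 9 at P18, 5 at least 2-fold (10.3% of 5724 genes). Among these 5, Egr2 had 280 counts in osteoblast-like and 11 in tendon-like cells, so it had enough counts through the osteoblast-like cells alone. In neither library was a member at least 2-fold lower (11.7% and 10.4% of genes).

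The 2 chondrocyte-like clusters of the droplets differed from each other. The cluster led by Msmp, Dcx and Smoc1 gave 2.10% of its counts to the members at P11, the most of any mesenchymal-like cluster of that library, and 0.983% at P18. The one led by Matn1, Fam25c and Matn3 gave 1.24% and 1.30%. The tendon-like cluster led by Barx2, Nrxn2 and Egln3 gave 0.478% at P11, the least of the mesenchymal-like clusters there.

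**Figure D3:**
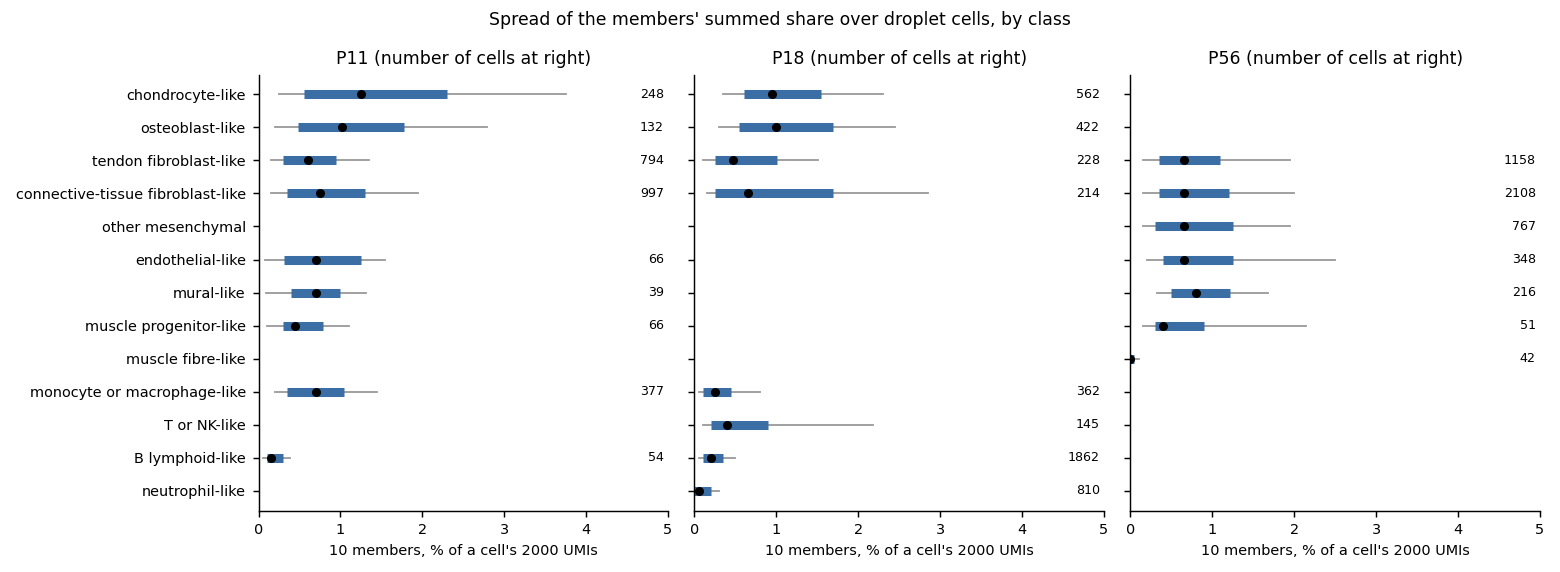
Percent of a cell's counts from the 10 members by droplet library and cell class, in cells thinned to 2000 counts each (points, medians, thick bars, 25th to 75th percentile, and thin lines, 10th to 90th percentile). At P11 the median is 1.25% in chondrocyte-like and 0.6% in tendon-like cells, and at P18 0.05% in neutrophil-like cells.

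The spread among cells of a class was wide. With each cell thinned to 2000 counts, the median mesenchymal-like cell had 0.7% of its counts in members at P11, 0.85% at P18 and 0.65% at P56. The 10th and 90th percentiles were 0.15% and 2% at P11, 0.2% and 2.3% at P18, and 0.15% and 2% at P56. Thinning left out 38, 26 and 76 shallower cells. The class medians were 1.25%, 0.6%, 0.75% and 1.03% in chondrocyte-like, tendon-like, connective-tissue-like and osteoblast-like cells at P11 and 0.95%, 0.475%, 0.65% and 1% at P18, well inside that spread. A Fos count was found in 82.1% of thinned mesenchymal-like cells at P11 (95% Clopper-Pearson interval 80.4% to 83.7%). At P18 the share was 82.3%, with an interval of 80.2% to 84.2%, and at P56 it was 45.4%, with an interval of 43.8% to 46.9%. Without thinning the shares were 92.8%, 91.9% and 61.9%. Atf3 was found in 24.97%, 23.7% and 42.7% of thinned cells, highest at P56 as in its CPM, while the P11 and P18 shares stood in the other order from the CPM. Jun was found in 59.6%, 35.8% and 56.8%, lowest at P18 as in its CPM. Jund was found in 85.6%, 89.2% and 94.5%, Junb in 64.1%, 71.6% and 75.2%, and Egr1 in 63.7%, 62.6% and 41.9%. Fosb was found in 41.3%, 48.4% and 49.2% and Ier2 in 41.7%, 56.5% and 29.3%. Neither Egr2 nor Egr3 was found in more than 7.0% of cells at any age.

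Neutrophil-like cells of the same P18 suspension served as a comparison for counts from free RNA, which was not itself measured. Their counts can include their own transcripts. Junb measured 445 CPM in their cluster led by Retnlg and Asprv1 and 41.1 CPM in that led by Ly6g and Ltf. In neutrophil-like cells thinned in the same way, Fos was found in 6.54% of 810 cells (95% Clopper-Pearson interval 4.94% to 8.47%), Egr1 in 0.617% and Egr2 in 0, which allows up to 0.454%. Their unthinned median was 5088 counts per cell, against 10353 in mesenchymal-like cells. B-lymphoid-like cells had Fos in 3.11% but Jund in 87.4% of 1862 cells. The Fos level was 34.6 CPM in neutrophil-like and 16.0 CPM in B-lymphoid-like cells of a suspension whose mesenchymal-like cells measured 4021 CPM. All of these cells had gone through 1 digestion. T- or NK-like cells had 3888 CPM of Junb and 446 CPM of Fos. Monocyte- or macrophage-like cells differed between libraries, with Egr1 at 1104 CPM at P11 and 80.8 CPM at P18, where clusters of different make-up carried that name.

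**Figure D4:**
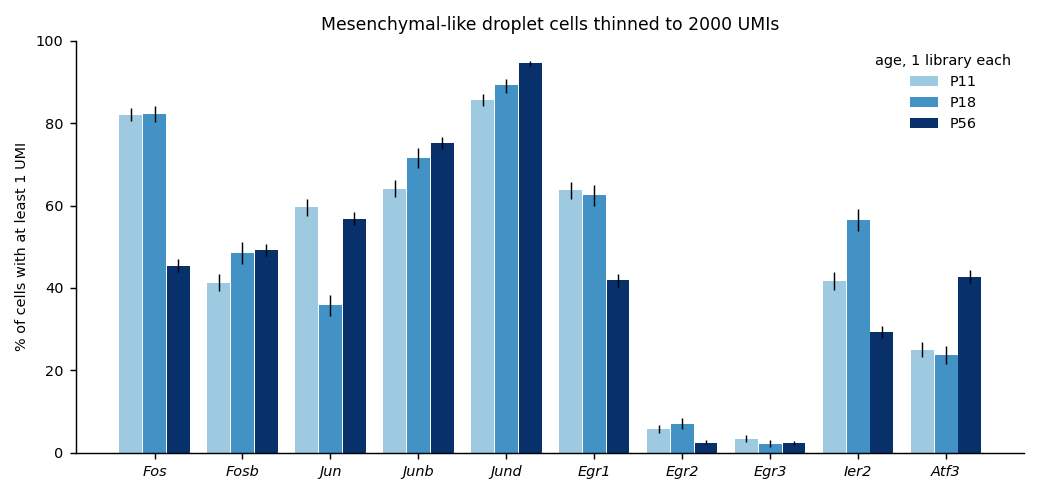
Percent of mesenchymal-like droplet cells with at least 1 count of each member, after thinning to 2000 counts, with 95% Clopper-Pearson intervals, by age. Fos is found in 82.1% and 82.3% of cells at P11 and P18 and in 45.4% at P56, and Jund is found in 85.6% to 94.5% of cells.

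Endothelial-like and mural-like cells were too few at P18 (9 and 1 cells) for a comparison over 3 libraries. Against fibroblast-like cells, 3 members were at least 2-fold higher in endothelial-like cells at P11 (18.3% of 10198 genes) and 2 at P56 (11.6% of 10240 genes), while 0 were at least 2-fold lower (17.4% and 21.4%). Atf3 measured 1196 CPM in endothelial-like cells at P56, against 568 and 414 CPM in connective-tissue-like and tendon-like cells. In mural-like cells 2 members were at least 2-fold higher at P11 (16% of 10091 genes) and 1, Junb at 3700 CPM, at P56 (11.1% of 10133 genes). At least 2-fold lower were 0 members (15.5% and 23.3% of genes).

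Connective-tissue-like cells could be compared with tendon-like cells in all 3 droplet libraries. In edgeR's quasi-likelihood test with the library as a block, 0 of 10 members were called (8.09% of 12611 genes were, 4.13% higher and 3.96% lower), and 3 members had an unadjusted p under 0.05. Junb measured 1229 against 531 CPM at P11, 1469 against 631 at P18 and 1843 against 1498 at P56, higher in connective-tissue-like cells each time. Its log2 difference was 0.55 ± 0.20 (SE, edgeR, 3 libraries, adjusted p = 0.189). Atf3 measured 383 against 79.6, 543 against 294 and 568 against 414 CPM, a difference of 0.84 ± 0.30 (adjusted p = 0.181). Egr3 was 1.67 ± 0.52 higher (adjusted p = 0.132), and DESeq2 called it (adjusted p = 0.0187). In single libraries, 3 of 10 members at P11 (22.2% of genes), 3 of 8 with enough counts at P18 (9.53%) and 0 of 10 at P56 (12.1%) were at least 2-fold higher. At least 2-fold lower were 0 members (4.02%, 3.72% and 5.7% of genes). Egr3, among the 3 at P11, had 395 counts in connective-tissue-like and 68 in tendon-like cells. Without the P56 library 4 members were called higher and 0 lower: Jun at 0.80, Junb at 0.79, Egr3 at 2.17 and Atf3 at 1.16. That fit called 10.7% of 11881 genes higher and 9.87% lower.

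Other early-response genes did pass in this comparison. Nr4a1, an orphan nuclear receptor, was higher in connective-tissue-like cells by 1.73 log2 units (edgeR, adjusted p = 0.0132), Fosl1, an AP-1 subunit, by 3.43 and Csrnp1 by 1.34. These were 3 of 14 other immediate-early transcription factors tested, with 0 lower. The salt-inducible kinase Sik1 was the only one of 19 feedback regulators called (1.70 higher). Of 8 secreted early-response genes 4 were higher, among them the chemokines Cxcl1 (4.18) and Ccl2 (3.89) and the cytokine Il6 (3.82). The other 2 called were lower, the matricellular Ctgf (-2.04, called Ccn2 in the plate gene list) and Thbs1 (-1.57). Of 12 heat-shock, 7 integrated stress response and 10 upstream genes 0 passed. The list medians were 0.43, 0.08, 1.81, 0.17, -0.26 and 0.16 in the order other transcription factors, feedback, secreted, heat shock, integrated stress response and upstream, against 0.008 over all genes.

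On 6 plates with both classes, Fos was lower and Junb higher in connective-tissue-like than in tendon-like wells. These were 1 lower and 1 higher of 8 members tested, while 15.2% of 2450 genes were called (8.29% higher and 6.9% lower). Junb measured 391 against 135 CPM at P7, 2460 against 1385 at P11, 687 against 350 at P14, 510 against 343 at P18, 3314 against 1244 at P28 and 1054 against 760 at P42. Connective-tissue-like wells were higher on 6 of 6 plates, and the log2 difference was 0.70 ± 0.18 (SE, edgeR, adjusted p = 0.00761). This call ended with no filter on low counts (adjusted p = 0.113), with the members in the clustering (adjusted p = 0.17) and without the library block (adjusted p = 0.64). Fos was lower on 5 of 6 plates, the exception being P7 (1158 against 1135 CPM), with the widest gap at P14 (949 against 2498 CPM). Its log2 difference was -0.70 ± 0.17 (edgeR, adjusted p = 0.00403), and the call ended without the block (adjusted p = 0.597). Ier2 was higher on 6 of 6 plates without passing the test (0.49 ± 0.27, edgeR, adjusted p = 0.306). The wells in a class numbered from 9 to 52 per plate.

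Called genes of the lists in this comparison were higher in connective-tissue-like wells, except Ccn2. They were Klf6 (0.81), 1 of 11 other transcription factors, and Nfkbia (0.79), Sik1 (2.09) and the mRNA-destabilising Zfp36 (0.64), 3 of 11 feedback regulators. Among 12 heat-shock genes 4 passed, the chaperones Dnaja1 (1.23), Hsp90aa1 (1.03), Hspe1 (0.87) and Hspa8 (0.55). Ccl2 (4.01) and Cxcl1 (3.02) were higher and Ccn2 (-1.80) lower among 6 secreted genes.

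Chondrocyte-like wells, from 5 to 14 on each of 5 plates, had lower Fos, Jun and Jund than tendon-like wells. Fos measured 183 against 1135 CPM at P7, 1631 against 4625 at P11, 617 against 2498 at P14, 957 against 3138 at P18 and 4520 against 5692 at P28. It was lower on 5 of 5 plates, by -1.65 ± 0.30 on the log2 scale (SE, edgeR, adjusted p = 0.00014). Jun was lower on 4 of 5 plates, with P7 the exception (481 against 354 CPM), and its log2 difference was -1.83 ± 0.45 (edgeR, adjusted p = 0.00324). Jund was lower on 5 of 5 plates (-1.26 ± 0.41, adjusted p = 0.0254), though nearly equal at P14 (275 against 281 CPM). These were 3 of 8 members tested, with 0 called higher, while 23.8% of 1946 genes were called, 13.2% lower and 10.6% higher. Counts were few: all 10 members together had 117 (P11) to 312 (P28) counts in the chondrocyte-like wells of a plate. Jun measured only 44.1 CPM at P14 and 45.6 CPM at P18 in these wells. Without the library block 0 of the 3 were called (adjusted p = 0.359 for Fos, 0.247 for Jun and 0.248 for Jund), and at clustering resolution 0.5 Fos was not (-0.47, adjusted p = 0.0722). Clustering with the members, or leaving out the P7, P11 or P28 plate, ended the call for Jund, and leaving out P11 added Ier2, higher by 1.34. Atf3 (-0.87), Fosb (0.69), Ier2 (0.70), Egr1 (0.33) and Junb (0.03) did not pass.

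List genes were called in both directions in this comparison. Maff (2.27), Cebpb (2.12) and Fosl1 (3.30) were higher and Klf2 (-1.94) lower in chondrocyte-like wells, 4 of 11 other transcription factors. Of 10 feedback regulators Ier5 (2.33) and Btg1 (1.55) were higher, and the phosphatase Dusp1 (-2.14) and the cytokine-signal inhibitor Socs3 (-1.25) lower. The chaperones Hspb1 (1.49) and Dnajb1 (1.36) were higher and Hspa1a (-1.53) lower, of 9 heat-shock genes. Ppp1r15a (-1.23), the phosphatase subunit of the integrated stress response, was the only one of 3 called there. Of 5 secreted genes 4 were called, all higher: the growth factor Hbegf (3.47) and the matricellular Ccn1 (1.53), Thbs1 (1.45) and Ccn2 (1.07).

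**Figure D5:**
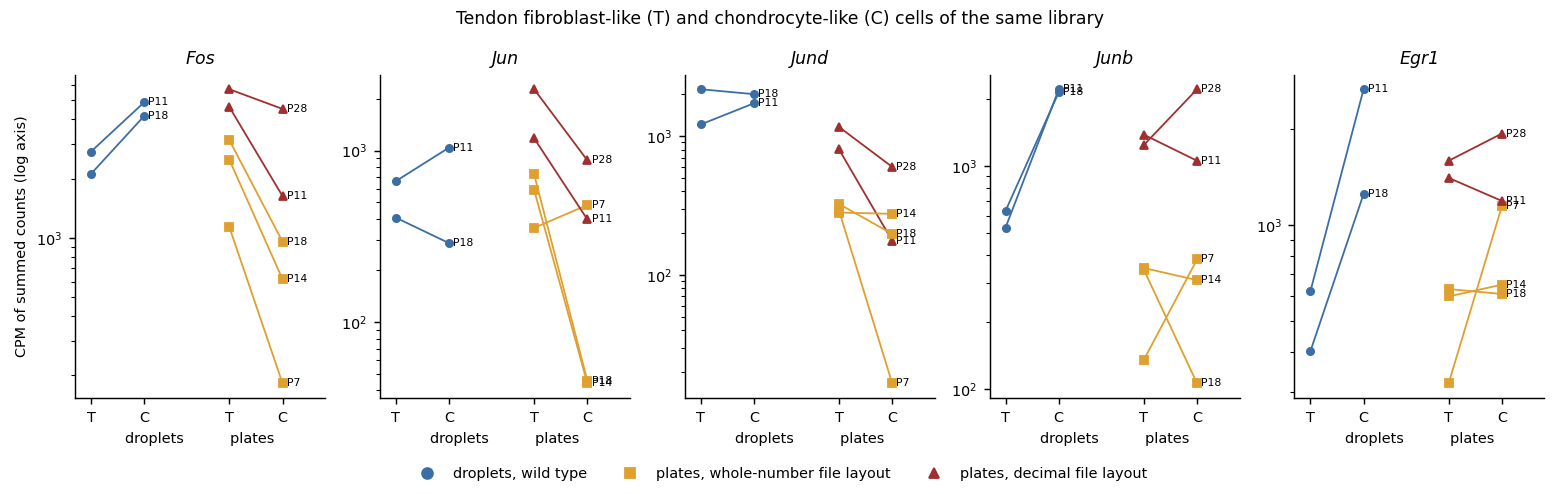
Level (CPM, log axis) of Fos, Jun, Jund, Junb and Egr1 in tendon fibroblast-like (T) and chondrocyte-like (C) cells, each line joining both classes of 1 library, with droplets at left and plates at right in each panel and colour for the file layout. The Fos line goes up from T to C in both droplet libraries (2745 to 4889 CPM at P11) and down on all 5 plates (4625 to 1631 CPM at P11).

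The direction for Fos was therefore opposite in the 2 assays, and the classes were not the same cells. The chondrocyte-like wells all came from 1 plate cluster led by Matn1 and Col10a1, whereas a cluster led by Msmp, which resembled the second droplet chondrocyte-like cluster in its leading genes, was not named on the plates. The tendon-like wells came from 3 clusters, 1 led by Cck and Fbn2 with 52 of its 67 wells at P7, 1 led by Olfr1406 with 44 of 92 at P28, and 1 led by Itga4. A stricter filter (1000 or more genes, mitochondrial counts no more than 5%) kept 23 of the 89 P28 wells and rebuilt the clusters, with tendon-like wells in 1 cluster led by Scx, Cck and Fbn2, 38 of 64 of them from P7. Then Fos was 0.26 higher in chondrocyte-like wells on 4 plates (edgeR, adjusted p = 0.426), Jun 0.01 higher (adjusted p = 0.987), and Egr1, Ier2, Junb and Fosb were called higher, with 0 lower (13.8% of 1320 genes higher and 9.39% lower). Between connective-tissue-like and tendon-like wells under this filter Fos likewise changed sign (0.14, edgeR, adjusted p = 0.804). Jun, Junb, Egr1 and Atf3 were called higher in connective-tissue-like wells and 0 members lower (6.28% of 2196 genes higher and 4.1% lower).

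Markers of other cell types were low in the mesenchymal-like cells but not absent. In the P18 droplets 7 of 7 neutrophil markers were detected and summed to 419 CPM, against 3.17 and 1.67 CPM at P11 and P56, with 2 of the 7 (Ltf and Retnlg) at 0 at P56. On the plates these markers were at 0 except for 1 gene at P21. The 6 muscle-fibre markers summed to 2167 and 1587 CPM on the P21 and P42 plates and 4.62 to 330 CPM on the others. The 7 endothelial markers summed to 522 and 499.8 CPM on the P28 and P42 plates, where 6 and 5 of them were at 0, and to 5.52 to 77.2 CPM on the others. Muscle-fibre-like droplet cells had 178 CPM of Fos and neither Egr2 nor Egr3, and the part of muscle or endothelial cells in the plate levels was not tested.

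Within each droplet library most pairs of members correlated positively from cell to cell. Over the 45 pairs of members, Pearson correlations of log counts in thinned mesenchymal-like cells had medians of 0.21 at P11 (2171 cells), 0.17 at P18 (1429 cells) and 0.23 at P56 (4052 cells), and 43 or 44 pairs were positive. The highest pair was Junb with Egr1 at P11 (0.59) and P18 (0.52) and Fos with Egr1 at P56 (0.61). Pairs with Egr3 were weak, the highest being Junb with Egr3 at P11 (0.17). No median over pairs of other genes is given here for comparison. These values describe cells that share a library and a preparation. The members' sum correlated with the cells' heat-shock counts at 0.40, 0.20 and 0.40 and with the mitochondrial percentage at -0.02, -0.03 and -0.15. With log depth before thinning it correlated at -0.09, 0.10 and -0.01.

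Among the genes most like the members' sum, ranked by the lowest correlation over the 3 libraries among 6256 genes, were Zfp36 (0.44), Socs3 (0.41), Ier3 (0.38), Btg2 (0.34), Nr4a1 (0.30), Gadd45b (0.30), Id3 (0.29), Sertad1 (0.27) and Klf4 (0.27). The median gene had -0.03. Of these 9, 5 are on the list of feedback regulators and 2 on that of other immediate-early transcription factors. Of the variance of the members' sum between mesenchymal-like cells, 12.7% lay between clusters at P11, 13.2% at P18 and 5.42% at P56. For Egr1 it was 17.7% at P11 and 1.82% at P56, and for Jund 4.77% and 2.18%. The median gene had 0.978%, 0.963% and 0.578%. Most of the variance of the members between cells lay within clusters in each of the 3 libraries, as it did for the median gene. The part between clusters was larger for the members' sum than for the median gene. That median is over all single genes found in at least 2% of cells. Genes matched to the members in level were not compared, so the gap cannot be read as particular to the members.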

How the data were processed

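Per the labels' protocols the authors made pooled 3′-end libraries, sequenced on a NovaSeq (droplets) and a NextSeq (plates). The deposited values are raw counts per gene and cell or well. Genome build mm10 is from the submitters' processing notes; per the file headers, the P56 matrix was written by software 3.0.2 and the other droplet matrices by 3.1.0. Aligner, annotation and collapse by molecular identifier on plates are not given in the sources used here. The members and gene lists were chosen with earlier results of these data known.

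Kept cells had 500 or more detected genes and no more than 10% of their counts from mitochondrial genes. Doublets were scored with scrublet in scanpy 1.11.5; its own threshold marked 1 to 4 cells per library, so the top-scoring 0.8% per 1000 cells were removed instead (70, 233 and 211 cells). Clustering (Leiden, resolution 1, leidenalg 0.10.2, 2000 variable genes, 30 components, 15 neighbours) ran per assay without members and listed genes. Cluster names needed at least 3 fixed markers. Counts were summed per class and library (at least 20 cells or 5 wells) and tested with edgeR 4.0.16 (quasi-likelihood, TMM, Benjamini-Hochberg over all genes tested, threshold 0.05); DESeq2 1.42.0 was an alternative. The block is the library, whose classes come from the same suspension or plate, so it rests on shared source and not on a number in the labels. With 1 library per age, p-values of the age and layout fits measure the spread between these libraries. Those of the class tests measure how the class difference varied from library to library. Plate slopes used genes with at least 10 counts in 4 libraries. In simulated data with 200 genes changed, the class tests recovered 87.5% (droplets, connective-tissue against tendon), 99% (plates, the same) and 98% (plates, chondrocyte against tendon) of 2 log2 unit changes, and the age slope 97% of 1.5 log2 unit slopes. These simulations used a fixed dispersion not fitted to the data and changed only genes above a mean count. Recovery of smaller slopes, such as the 0.75 of Atf3, was not simulated. Named genes were all members, every list gene past a test (at most 3 per direction where over 5 passed), and the 10 genes most like the members' sum, of which 1 is not reported here. Intervals and limits on 0 cover counting error only.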

Additional observations from a re-analysis of the deposited data

Results flagged for a closer look

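In 7 cases a member moved opposite ways in droplets and plates; the difference between assays was not tested in any. Fos was lower in chondrocyte-like than in tendon-like wells on all 5 plates (log2 difference -1.65 in edgeR) and higher in both droplet libraries (log2 ratios 0.83 at P11 and 0.98 at P18). In pooled mesenchymal-like cells, from P11 to P18, 6 members had a lower level on the plates and a higher one in the droplets, with 1 library per age and assay. The droplet levels pool classes whose shares differed. Within classes Fos rose only in connective-tissue-like cells, and Egr2 rose in none. The share of all genes moving opposite ways was not computed. The plate log2 ratios were -0.83 for Fos, -2.28 for Junb, -1.39 for Jund, -1.17 for Egr2, -1.62 for Ier2 and -1.65 for Atf3. That of Egr2 rested on only 14 counts at P11 and 7 at P18. Its Poisson counting intervals on these plates, 23.8 to 73.2 and 7.77 to 39.8 CPM, overlapped. The P11 and P18 plates differ in file layout.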

How the results depend on the processing

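No pairing by replicate was possible because the labels give no replicate numbers beyond 1 library per group. The class comparisons paired 2 classes within each library, with the library itself as the block. Without that replicate block 0 members were called in either plate comparison, against 1 higher and 1 lower (connective tissue) and 3 lower (chondrocyte). The causes of the changes below were not tested. By age in the droplets, all kept cells gave 3 lower (P18 over P11) and 5 higher and 0 lower (P56 over P18), with Egr1 at 0.39 there. The stricter filter gave 0 higher (P56 over P11), and TMM scaling 0 lower (P18 over P11) and 0 higher (P56 over P18). Tendon-like cells gave 1 higher and 2 lower (P18 over P11), 3 and 0 (P56 over P11), and 5 and 0 (P56 over P18), with Egr2 at 0.19 (P56 over P11) and 1.91, and Egr1 at 0.55 (P56 over P18). At P18 Egr2 and Egr3 had only 11 and 1 counts in these cells. Connective-tissue-like cells gave 0 lower (P18 over P11, Jun 0.13), 0 higher (P56 over P11) and 0 higher (P56 over P18, Jun -0.47). Chondrocyte-like cells gave 2 lower and osteoblast-like cells 0 lower (P18 over P11).

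Age slopes with layout as a term were -0.18 (Junb), -0.013 (Jund), -0.11 (Egr1), -0.0039 (Egr2) and -0.24 (Ier2). Leaving out a plate they ranged from -0.15 to 0.88 (Junb), -0.015 to 0.39 (Egr1), -0.054 to 0.92 (Egr2) and -0.10 to 0.70 (Ier2), each negative only without P7; Egr2 passed the filter in only 3 of the 7 fits, those without P7, P18 or P42. For layout, DESeq2 and no filter each called 1 higher. In the droplets, connective tissue against tendon gave 1 higher with DESeq2, no filter, the stricter filter, resolution 0.5, members in the clustering or doublets kept, and 0 to 4 leaving out a library, 4 without P56. There Egr2 was 0.32 (stricter), 0.17 (resolution 0.5) and, leaving out a library, -0.45 to 0.22 (positive without P56). Ier2 ranged from -0.042 (without P18) to 0.39, Jun from -0.20 (without P18) to 0.80 and Egr1 from -0.13 (without P18) to 0.61, and Ier2 was also negative without P11.

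On plates, connective tissue against tendon gave 0 higher with no filter or members in the clustering, and 4 higher and 0 lower under the stricter filter (Fos 0.14, Fosb 0.017). Leaving out a plate gave 1 higher and 1 to 2 lower. Egr1, near 0, was -0.0024 (RLE), -0.0011 (DESeq2), -0.0056 (no filter), -0.053 (resolution 0.5), -0.043 (members in the clustering) and -0.12 (without P7) to 0.11 leaving out a plate, negative also without P11, P18 or P28. Chondrocyte against tendon gave 4 higher and 0 lower under the stricter filter (Fos 0.26, Jun 0.012, Atf3 0.40), 1 higher with members in the clustering, and 0 to 1 higher and 2 to 3 lower leaving out a plate. Junb was -0.27 (no filter) and, leaving out a plate, -0.28 (without P7) to 0.33, negative also without P28, and Egr1 -0.0084 (without P7) to 0.55. Single-gene fits newly passed the threshold in 22 cases and no longer passed in 13, and 138 droplet age ratios moved beyond their counting error. The remaining 136 counts and summary values changed by no more than 1.5 times or by less than their spread, and 521 single-gene values kept their direction and side of the threshold or, for values with no test, moved within their counting error. Plates limit Egr2 and Egr3, which were too low for the class tests.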

Other observations

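A cluster of 46 endothelial-like cells at P56, led by Ccl21a, Nts and Mmrn1, gave 2.41% of its counts to the members, against 0.896% in the other endothelial-like cluster of that library, led by Selp, Fabp4 and Sele. Its Fos level was 5846 CPM against 951 CPM, in a library whose mesenchymal-like cells measured 1290.0 CPM. The unnamed progenitor clusters of the P18 droplets, led by genes such as Elane, Prtn3 and Mpo, gave 0.0316% to 0.229% of their counts to the members.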
